A study of Mus musculus with 16 samples.

Results

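Interleukins are secreted signals between cells, most of them first described in leukocytes, and their receptors are chains on the cell surface that pair to pass the signal inwards. The genes described here are those with a gene number whose symbol is Il followed by a digit. They are 79 of 20101 genes with a gene number, namely 33 ligands, 4 secreted inhibitors, 40 receptor chains, the enzyme Il4i1 and the uncharacterised Il4i1b. RNA was sequenced from the epididymal fat pad (eWAT, a white fat depot that lies against the epididymis) of mice at 21 weeks of age, 4 mice in each of 4 groups. The groups were WT on chow (chow WT), the ApoA4 KO label on chow (chow KO), WT on a high-fat diet (HFD WT) and the KO label on the high-fat diet (HFD KO). Chow held 5% fat and the high-fat diet (HFD) 60% fat, fed from 5 weeks of age. The mouse strain was not given in the sources used here, and the genotype field of the mice titled KO calls them knockdown, so WT and KO are used as labels only.

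Interleukins act through a few shared receptor designs. IL-1 family receptors signal through MyD88 and IRAK kinases to NF-kB, and IL-17 receptors through the adaptor Act1; the other large families share a chain (the common gamma chain, gp130, or the IL-10 receptor beta chain) and signal through JAK kinases and STAT factors. Fat tissue of lean animals is known to hold resident immune cells that type 2 cytokines and IL-33 sustain, while obese fat gathers macrophages, a main source of IL-1 family and IL-10 family signals.

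Before any result, some facts about the libraries bear on what follows. RNA of Apoa4, the targeted gene, was higher in the libraries labelled KO, at 1.96 to 9.63 FPKM, than in those labelled WT, at 0 to 0.29 FPKM, so directions between genotypes rest on the labels. Chow KO replicate 2 and HFD KO replicate 4 held many transcripts of the epididymis (13309.8 and 5436 FPKM summed over 10 marker genes) and HFD KO replicate 2 held fewer (342). The remaining 13 libraries held at most 39.9. The lowest correlation across genes between libraries of a group was 0.986 in chow WT and 0.855 in HFD KO. Markers of the labelled tissue were present in every library, with Adipoq, the adipocyte hormone adiponectin, between 207 FPKM (HFD KO replicate 1) and 4573 FPKM (chow WT replicate 3). Nnt, a mitochondrial enzyme lost in some mouse substrains, was 25.7 to 29.2 FPKM in chow WT and 6.5 to 10.6 FPKM in all other libraries, HFD WT included. Whatever sets chow WT apart in Nnt cannot be told apart from diet in WT-labelled mice, or from the label on chow.

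Levels are FPKM, fragments scaled to transcript length and to library size. A member was tested where it reached 1 FPKM in at least 4 of the 16 libraries, which 41 members did and 38 did not. Of the 27 tested receptor chains, Il6st, the gp130 chain shared by IL-6 type cytokines, had the highest level in the chow WT group, at 76.2 ± 5.74 FPKM (SD, n = 4). Il6ra, the IL-6 binding chain, followed at 27.1 ± 1.42 FPKM, then Il11ra1, the IL-11 receptor, at 25.2 ± 1.73 FPKM and Il10rb, the shared IL-10 receptor beta chain, at 22.6 ± 2.09 FPKM. The libraries of each of the last 3 overlapped those of its neighbour in this order, and Il6st stood clear of them. Il11ra2, a near-identical copy of Il11ra1, was at most 0.22 FPKM, and how reads were shared between the copies was not given in the sources used here.

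Ligands were mostly near the floor of the measurement. Of the 38 members under the filter, 4 were listed at 0 in every library (Il9, Il17f, Il19 and Il1f6), 27 never passed 0.5 FPKM, 6 peaked between 0.5 and 1 FPKM, and 5 reached 1 FPKM in 1 to 3 libraries. The cytokines by which T helper cells are classed were in the low set: Il4 was at most 0.24 FPKM, Il13 at most 0.23, Il5 at most 0.11, Il2 at most 0.08, Il17a at most 0.06 and Il21 at most 0.03. Il12b, the subunit shared by IL-12 and IL-23, lay between 0.03 and 0.38 FPKM, and none of the 6 members of the IL-12 family was tested. Il6, the cytokine of fat and macrophages that binds Il6ra, was 0.5 FPKM or less in 15 libraries and 1.42 FPKM in HFD KO replicate 1. Il1a, the other IL-1 agonist, also had its highest value there, 0.74 FPKM, against at most 0.35 FPKM elsewhere. The 5 that reached 1 FPKM without passing were Il2ra (at most 1.59 FPKM), Il6, Il18rap (1.28), Il12rb2 (1.21) and Il22ra1 (1.2). Just inside the filter were Il1b, Il1r2 and Il20rb, with 4 libraries at 1 FPKM, and Il10, Il13ra2 and Il22ra2 with 5. Of these, Il1b, Il1r2, Il10 and Il13ra2 reached 1 FPKM in HFD libraries alone, so they were tested only through the diet on which they were high, and their calls with diet are not independent of the filter.

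**Figure D1:**
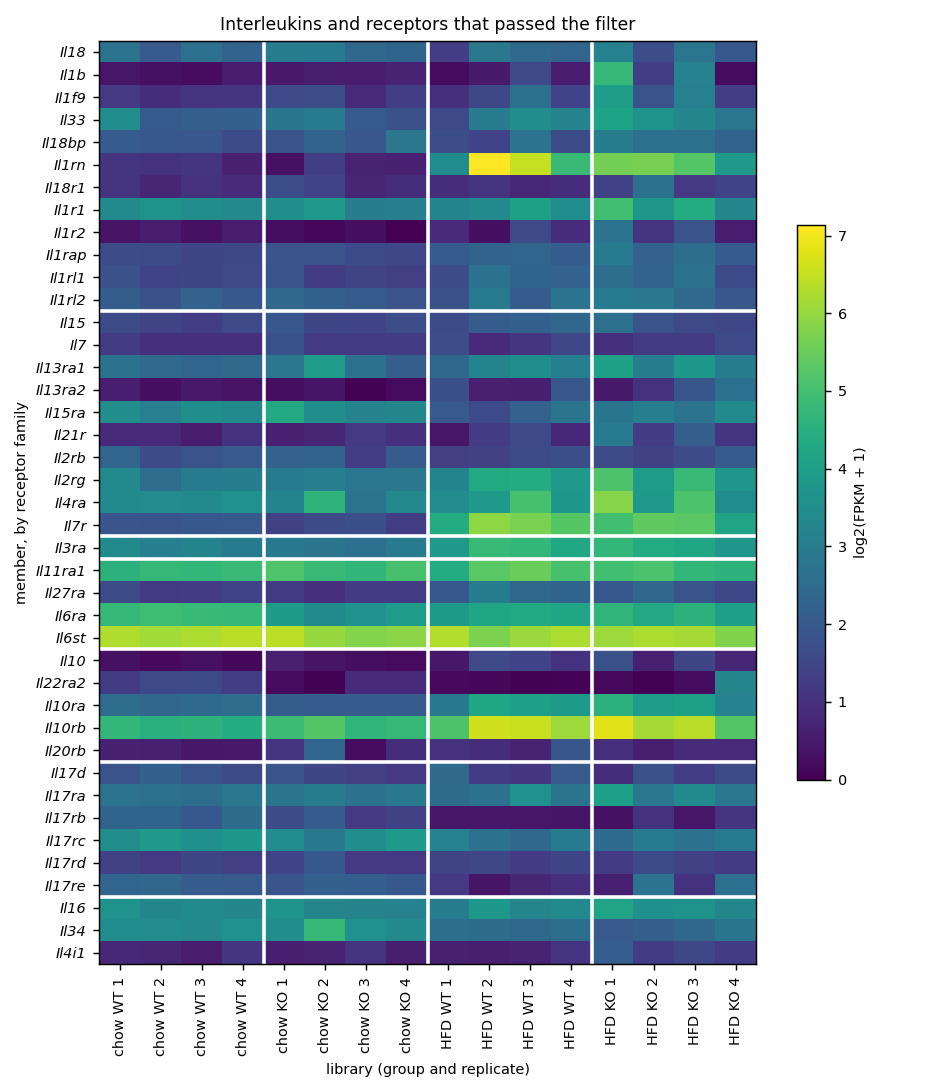
Heat map of the 41 members that passed the filter (lines, grouped by receptor family with white lines between families) in the 16 libraries (columns, grouped by diet and genotype label), coloured by log2(FPKM + 1). Il6st is bright in every library, Il1rn and Il7r are dark on chow and bright on HFD, and Il17rb goes the other way; HFD KO replicate 1 is the highest library for 20 of the 41 members.

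Of the 21 members called with diet under either label, 13 changed in the same direction under both, with the IL-1 receptor antagonist and the IL-7 receptor far ahead. In WT-labelled mice 10 of the 41 tested members rose on HFD (24.4%, against 24.6% of all tested genes) and 6 fell (14.6%, against 17.2%), by limma with Benjamini-Hochberg adjusted p under 0.05. In KO-labelled mice 16 rose (39.0%, against 23.5% of all tested genes) and 3 fell (7.32%, against 15.3%). The WT shares were near the background. The median difference on the log2(FPKM + 1) scale was 0.34 over the tested members and 0.06 over all tested genes in WT-labelled mice, and 0.57 and 0.08 in KO-labelled mice. The comparisons share no library, but they share the filter and the same estimate of the spread per gene, so their calls are not independent. Between them, 10 members rose in both, 3 fell in both, 1 changed in opposite directions, 2 were called in WT-labelled mice alone and 5 in KO-labelled mice alone. Of all tested genes, 5304 were called in WT-labelled and 4922 in KO-labelled mice, and their overlap is not given here. The agreement is thus not read as particular to the members. Il10, among those that rose in both, was tested only through HFD libraries. Under quantile normalization 11 rose and 4 fell in KO-labelled mice, given without the matching shares of all tested genes. Whether the KO share that rose stayed above the background under this scaling is thus not shown. This scaling shifted the median over all tested genes by -0.151 there and by -0.114 in WT-labelled mice. Where a gene had also to reach 1 FPKM in at least 1 library of each diet, a setting chosen after the data were seen, 37 members were left. Of these, 9 rose (24.3%, against 23.4% of all genes left) and 6 fell (16.2%, against 17.3%) in WT-labelled mice, near the background. In KO-labelled mice 12 rose (32.4%, against 22% of all genes left) and 3 fell (8.11%, against 15.4%). Without HFD KO replicate 1 the KO count was 13 (11 up, 2 down), with 29.4% of all tested genes called, and without HFD KO replicate 3 it was 13 (10 up, 3 down), with 30.6%. In bulk tissue, more cells of a type and more RNA per cell cannot be told apart, here or in any result below.

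**Figure D2:**
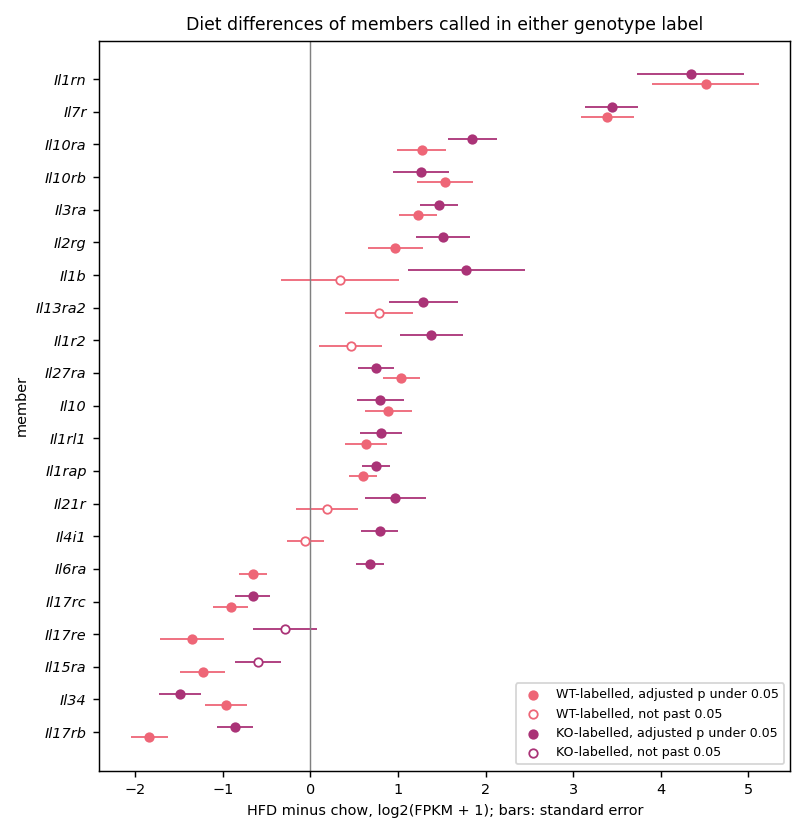
HFD minus chow on the log2(FPKM + 1) scale with its standard error for the 21 members called in either genotype label; filled points passed an adjusted p of 0.05 and open points did not. Il1rn (4.51 and 4.34) and Il7r (3.39 and 3.44) lie far to the right of the rest under both labels, and Il6ra lies on opposite sides of 0.

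The RefSeq windows around the start sites of 4 genes that the results turn on are shown as context, from 250 bases before to 50 bases after the start on GRCm38.p6, read on the strand of the gene. Il1rn and Il7r had the largest rises with diet, Il17rb the largest fall in WT-labelled mice, and Il6ra changed in opposite directions. Capitals mark matches, on either strand, to TTCNNNGAA (a STAT motif), TGANTCA (AP-1), GAGGAA (the core of ETS factors such as PU.1) or the NF-kB motif.
Il1rn, chr2:24345121-24345420, + strand: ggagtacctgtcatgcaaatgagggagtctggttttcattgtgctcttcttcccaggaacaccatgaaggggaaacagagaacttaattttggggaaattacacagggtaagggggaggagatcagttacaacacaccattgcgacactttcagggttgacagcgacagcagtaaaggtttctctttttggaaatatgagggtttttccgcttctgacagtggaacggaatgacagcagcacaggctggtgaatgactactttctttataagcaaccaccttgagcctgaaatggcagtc
Il7r, chr15:9529827-9530126, - strand: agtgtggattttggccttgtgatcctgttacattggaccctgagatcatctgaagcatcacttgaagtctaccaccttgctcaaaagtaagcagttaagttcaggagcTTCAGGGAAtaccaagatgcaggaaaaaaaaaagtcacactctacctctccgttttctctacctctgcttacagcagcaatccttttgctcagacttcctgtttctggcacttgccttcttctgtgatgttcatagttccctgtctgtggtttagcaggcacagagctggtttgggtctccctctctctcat
Il17rb, chr14:30008847-30009146, - strand: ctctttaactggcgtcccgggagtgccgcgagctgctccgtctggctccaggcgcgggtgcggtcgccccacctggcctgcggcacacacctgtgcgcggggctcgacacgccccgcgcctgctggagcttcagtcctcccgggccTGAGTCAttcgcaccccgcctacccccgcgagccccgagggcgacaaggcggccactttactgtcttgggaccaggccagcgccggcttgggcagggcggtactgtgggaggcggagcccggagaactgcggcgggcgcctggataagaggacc
Il6ra, chr3:89913147-89913446, - strand: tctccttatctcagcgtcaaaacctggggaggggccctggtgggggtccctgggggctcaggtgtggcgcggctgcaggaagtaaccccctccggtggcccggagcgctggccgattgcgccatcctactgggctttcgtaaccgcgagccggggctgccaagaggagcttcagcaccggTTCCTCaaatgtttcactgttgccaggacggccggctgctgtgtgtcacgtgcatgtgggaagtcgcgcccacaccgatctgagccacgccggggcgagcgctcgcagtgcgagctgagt
The Il1rn window is 1 of 3 in the table and holds no match. The Il7r window holds a STAT match, TTCAGGGAA, 142 bases before the start site, the Il17rb window an AP-1 match, TGAGTCA, 104 bases before it, and the Il6ra window an ETS match on the minus strand, TTCCTC, 70 bases before it. Such matches are common: of 32851 windows of this length, 8.3% held the STAT motif, 7.81% AP-1, 28.3% GAGGAA and 4.51% the NF-kB motif. Of the 42 windows of 31 tested members, 11.9% held the STAT motif, 11.9% AP-1, 28.6% GAGGAA and 7.14% the NF-kB motif. A match is a description of the letters and not a site of binding.

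Il1rn encodes the secreted antagonist that occupies the IL-1 receptor without signalling (chromosome 2, 24336860 to 24351491, GRCm38.p6). Il1rn stood at 1.14, 1.05, 1.13 and 0.58 FPKM in chow WT, 0.25, 1.52, 0.64 and 0.57 in chow KO, 10.1, 139, 89.7 and 27 in HFD WT, and 48.7, 50.1, 36 and 13.4 in HFD KO. Every HFD library lay above every chow library, and the HFD libraries themselves were spread widely. The group mean FPKM was 68.2 times higher on HFD in WT-labelled mice and 49.7 times higher in KO-labelled mice. On the log2(FPKM + 1) scale of the limma fit, Il1rn rose by 4.51 (SE 0.61, adjusted p = 0.000108) and 4.34 (SE 0.61, adjusted p = 0.000196). Of all ligand and inhibitor FPKM among the members, Il1rn made up 0.508% to 2.79% in the chow libraries and 22.8% to 76.0% in the HFD libraries. Between labels on HFD, Il1rn differed by -0.39 (adjusted p = 0.837), a difference that changed sign without HFD WT replicate 2 or HFD KO replicate 4.

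The agonist that Il1rn opposes was highest in 2 of the HFD KO libraries. Il1b, released after caspase-1 cleavage, stood at 0.36, 0.25, 0.17 and 0.46 FPKM in chow WT, 0.4, 0.5, 0.45 and 0.65 in chow KO, 0.16, 0.43, 1.99 and 0.49 in HFD WT, and 25.8, 1.46, 8.02 and 0.18 in HFD KO. HFD KO replicates 1 and 3 were high, while HFD KO replicate 4 was below every chow KO library, so the groups overlapped. Il1b rose on HFD in KO-labelled mice by 1.78 (SE 0.67, adjusted p = 0.0472), a call lost in 19 of the 22 alternatives that test it (adjusted p = 0.0788 with no filter), and differed by 0.34 in WT-labelled mice (adjusted p = 0.714). The ratio of Il1rn to Il1b was between 0.625 and 6.65 in the chow libraries, 45.1 to 323 in HFD WT, and 1.88, 34.3, 4.49 and 74.4 in HFD KO.

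Of the other IL-1 family ligands and inhibitors that were tested, none passed the threshold in either diet comparison. Il18, a cytokine also matured by caspase-1, stood at 5.54, 3.1, 5.11 and 3.86 FPKM in chow WT, 7.16, 6.66, 4.18 and 3.91 in chow KO, 1.47, 6.2, 4.45 and 4 in HFD WT, and 7.74, 2.26, 5.93 and 2.9 in HFD KO. Its groups overlapped, with differences of -0.18 and -0.26. Il18bp, the soluble trap of IL-18, lay between 1.69 and 6.94 FPKM (differences -0.02 and 0.41).

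Il33, the alarmin released by stromal cells, stood at 10.2, 3.09, 3.5 and 3.53 FPKM in chow WT, 5.79, 6.72, 3.08 and 2.38 in chow KO, 1.95, 7.18, 10.4 and 8.11 in HFD WT, and 16.4, 11.6, 8.84 and 5.91 in HFD KO. The WT groups overlapped through single libraries, chow WT replicate 1 high and HFD WT replicate 1 low. The KO groups overlapped through chow KO replicate 2 (6.72 FPKM) and HFD KO replicate 4 (5.91 FPKM), both libraries with epididymal genes. Il33 differed by 0.35 (adjusted p = 0.543) and 1.09 (adjusted p = 0.0611), and the second difference passed the threshold in 6 of 29 alternatives, among them without chow KO replicate 2 or HFD KO replicate 4. Il1f9, which encodes IL-36 gamma, lay between 0.84 and 2.25 FPKM on chow and was highest in HFD KO replicate 1 at 15 FPKM, with 5.12 FPKM in HFD WT replicate 3 (differences 0.58 and 1.18, adjusted p = 0.343 and 0.0585).

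Of the IL-1 family receptor chains, the accessory protein and the IL-33 receptor rose under both labels. Il1rap, the accessory chain that IL-1, IL-33 and IL-36 receptors share, stood at 2.15, 2.06, 1.81 and 1.91 FPKM in chow WT, 2.57, 2.54, 2.03 and 1.89 in chow KO, 3.03, 3.85, 4.02 and 3.2 in HFD WT, and 6.46, 3.73, 4.91 and 3.23 in HFD KO. All HFD libraries lay above all chow libraries, and Il1rap rose by 0.60 (SE 0.16, adjusted p = 0.00837) and 0.75 (SE 0.16, adjusted p = 0.00256). It shares 552 exon bases with the antisense gene Gm20319, and reads of both cannot be told apart without strand. Il1rl1, the IL-33 receptor ST2, stood at 2.4, 1.71, 1.81 and 1.99 FPKM in chow WT, 2.58, 1.34, 1.76 and 1.55 in chow KO, 2.09, 5.45, 3.88 and 3.73 in HFD WT, and 4.92, 3.86, 5.38 and 2.01 in HFD KO. Here 1 library of each HFD group reached into the chow range. Il1rl1 rose by 0.64 (adjusted p = 0.0462, lost in 15 of 29 alternatives) and 0.81 (adjusted p = 0.0174, lost under quantile normalization and without HFD KO replicate 1 or 3).

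The decoy receptor of IL-1 rose in KO-labelled mice, and the signalling receptor passed in neither comparison. Il1r2, the decoy that binds IL-1 without signalling, stood at 0.3, 0.46, 0.24 and 0.47 FPKM in chow WT, 0.19, 0.11, 0.23 and 0 in chow KO, 0.8, 0.23, 2 and 0.86 in HFD WT, and 5.6, 1.15, 2.57 and 0.47 in HFD KO. Il1r2 rose in KO-labelled mice by 1.38 (SE 0.36, adjusted p = 0.00814), with all HFD KO libraries above all chow KO libraries, and differed by 0.46 in WT-labelled mice (adjusted p = 0.328). The 4 libraries that brought it past the filter were HFD WT replicate 3 and HFD KO replicates 1, 2 and 3, and without any one of them it was not tested. With no filter the adjusted p in KO-labelled mice was 0.0140. Il1r1, the signalling chain, stood at 9.49, 11.3, 10.2 and 9.32 FPKM in chow WT, 10.8, 13.4, 7.09 and 7.37 in chow KO, 8.29, 9.35, 15.7 and 10.1 in HFD WT, and 30.1, 12.8, 20.4 and 8.89 in HFD KO. Its groups overlapped, and it differed by 0.06 in WT-labelled mice and 0.75 in KO-labelled mice (adjusted p = 0.884 and 0.0596). The KO difference passed the threshold without chow KO replicate 2 (0.90), without HFD KO replicate 4 (1.02) and without the 3 libraries with epididymal genes (1.48). The remaining tested chains, Il1rl2 (the IL-36 receptor, 2.39 to 6.81 FPKM) and Il18r1 (the IL-18 receptor, 0.7 to 5.33 FPKM), passed in neither comparison. Il1r2, Il1r1, Il1rl2, Il1rl1, Il18r1 and Il18rap lie side by side on chromosome 1, from 40084692 to 40551707, and Il1rn and Il1f9 lie in another cluster on chromosome 2.

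In the common gamma chain family, the IL-7 receptor had by far the largest difference. Il7r, the IL-7 binding chain that also forms the receptor of TSLP with Crlf2 (chromosome 15, 9506159 to 9529941), stood at 2.69, 2.59, 2.91 and 2.99 FPKM in chow WT, 1.65, 2.08, 2.32 and 1.46 in chow KO, 20, 59.6, 50.8 and 36.9 in HFD WT, and 30.1, 40.7, 38.9 and 16.9 in HFD KO. The lowest HFD library, HFD KO replicate 4, stood far above the highest chow library. Il7r rose by 3.39 (SE 0.30, adjusted p = 3.42e-06) in WT-labelled and by 3.44 (SE 0.30, adjusted p = 6.89e-06) in KO-labelled mice. Its group means went from 2.80 ± 0.186 to 41.8 ± 17.3 FPKM and from 1.88 ± 0.393 to 31.7 ± 10.9 FPKM (SD, n = 4). Il7 itself lay between 0.82 and 2.5 FPKM and differed by 0.26 and -0.12.

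Il7r is best known as a lymphocyte receptor, so the markers of T cells are given beside it. The 10 T cell genes summed to 15.8 to 27.6 FPKM in chow WT, 12.7 to 19.1 in chow KO, 8.24 to 12.8 in HFD WT and 11.9 to 30.0 in HFD KO. Of the 8 tested, 4 fell and 0 rose in WT-labelled mice, and 2 rose and 0 fell in KO-labelled mice. Cd3e, a chain of the T cell receptor complex, was 2.36 to 4.48 FPKM in chow WT and 0.44 to 2.04 in HFD WT. Under the KO label it was 1.26 to 2.78 FPKM on chow and 1.57 to 4.19 on HFD, which overlap. All 10 macrophage markers rose under both labels, with summed levels of 697 to 923 FPKM on chow and 1895 to 9628 on HFD, and 5 of 7 adipocyte markers fell under both. The part of these cell types in the interleukin results was not tested.

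Il2rg, the common gamma chain that gives the family its name, stood at 9.69, 4.9, 6.81 and 7.02 FPKM in chow WT, 6.73, 7.37, 5.97 and 6.04 in chow KO, 8.34, 19.2, 20.4 and 13.5 in HFD WT, and 34.6, 14.3, 27.1 and 12.5 in HFD KO. The WT groups overlapped through HFD WT replicate 1, and the KO groups did not overlap. Il2rg rose by 0.97 (SE 0.31, adjusted p = 0.0203, lost without chow WT replicate 2, HFD WT replicate 2 or HFD WT replicate 3) and by 1.51 (SE 0.31, adjusted p = 0.00198). It shares 728 exon bases on its own strand with the annotated gene Gm20489, so reads could belong to either.

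The IL-15 receptor fell in WT-labelled mice, and its ligand passed in neither comparison. Il15ra, which presents IL-15 to neighbouring cells, stood at 10.2, 7.61, 10.8 and 9.37 FPKM in chow WT, 19.1, 10.4, 8.2 and 8.74 in chow KO, 2.99, 2.03, 3.77 and 5.74 in HFD WT, and 5.86, 7.42, 5.54 and 9.43 in HFD KO. Il15ra fell by 1.23 in WT-labelled mice (SE 0.26, adjusted p = 0.00208) with no overlap, and differed by -0.60 in KO-labelled mice (adjusted p = 0.0853), where the groups overlapped and 3 of 29 alternatives passed. Il15 stood at 2.1, 1.76, 1.51 and 1.96 FPKM in chow WT, 2.81, 1.83, 1.7 and 2.24 in chow KO, 2.16, 3.2, 3.58 and 4.07 in HFD WT, and 5.2, 2.53, 1.95 and 1.84 in HFD KO. It differed by 0.57 (adjusted p = 0.0533) and 0.24 (adjusted p = 0.417). Il2rb, the beta chain that IL-2 and IL-15 share, lay between 1.45 and 3.98 FPKM and differed by -0.43 and -0.29 (adjusted p = 0.124 and 0.308).

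Il4ra, Il21r and Il13ra2, receptors of IL-4, IL-13 and IL-21, had their widest ranges of FPKM in HFD KO, and none of these members was called in WT-labelled mice. Il4ra, the chain that IL-4 and IL-13 both need, stood at 9.47, 9.85, 9.64 and 11.2 FPKM in chow WT, 8.22, 23.9, 5.72 and 9.19 in chow KO, 9.78, 13.6, 32.4 and 13.1 in HFD WT, and 56.6, 13.2, 33.8 and 10.1 in HFD KO. One library of chow KO and 1 of HFD WT stood far above the rest of their group, and 2 of HFD KO did. Il4ra differed by 0.58 and 1.08 (adjusted p = 0.367 and 0.0968), and the KO difference passed without chow KO replicate 2 (1.47), without HFD KO replicate 4 (1.45) and without the 3 libraries with epididymal genes (2.38). Il13ra1, its partner chain, lay between 3.5 and 15.9 FPKM and differed by 0.56 and 0.57 (adjusted p = 0.205 and 0.202).

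Il21r, the IL-21 receptor and neighbour of Il4ra on chromosome 7, stood at 0.85, 0.81, 0.45 and 1.05 FPKM in chow WT, 0.58, 0.71, 1.28 and 0.94 in chow KO, 0.34, 1.41, 1.99 and 0.73 in HFD WT, and 6.83, 1.4, 3.44 and 1.12 in HFD KO. It rose in KO-labelled mice by 0.97 (adjusted p = 0.0387, lost in 10 of 29 alternatives, among them without HFD KO replicate 1 or 3), and differed by 0.19 in WT-labelled mice. Il13ra2, a decoy for IL-13, stood at 0.5, 0.23, 0.39 and 0.3 FPKM in chow WT, 0.21, 0.33, 0 and 0.16 in chow KO, 2.32, 0.53, 0.51 and 2.79 in HFD WT, and 0.44, 1.05, 2.73 and 5.11 in HFD KO. HFD libraries lay above chow libraries under each label. Il13ra2 rose in KO-labelled mice by 1.29 (adjusted p = 0.0170, 0.0287 with no filter, 1.17 and lost without HFD KO replicate 3), and differed by 0.78 in WT-labelled mice (adjusted p = 0.120).

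Il3ra, the IL-3 receptor and the 1 tested member of the common beta chain family, rose under both labels. Il3ra stood at 9.52, 7.39, 8.26 and 6.88 FPKM in chow WT, 6.44, 5.66, 5.08 and 6.46 in chow KO, 13.1, 26.7, 25.5 and 18 in HFD WT, and 25.3, 19.9, 17.2 and 12.4 in HFD KO. No HFD library reached down to the chow range. The rises were 1.23 (SE 0.22, adjusted p = 0.000603) and 1.47 (SE 0.22, adjusted p = 0.000273).

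In the IL-10 family, the cytokine and both chains of its receptor rose under both labels. Il10, an anti-inflammatory cytokine of macrophages and lymphocytes, stood at 0.24, 0.13, 0.24 and 0.12 FPKM in chow WT, 0.53, 0.29, 0.2 and 0.15 in chow KO, 0.38, 1.95, 1.69 and 1.07 in HFD WT, and 2.41, 0.54, 1.79 and 0.7 in HFD KO. HFD libraries lay above chow libraries under each label, at levels close to the filter, which it passed through 5 HFD libraries. With no filter the adjusted p was 0.0207 and 0.0366. Il10 rose by 0.89 (adjusted p = 0.0152, lost without HFD WT replicate 2 or 3) and 0.80 (adjusted p = 0.0274, lost without chow KO replicate 3 or 4, HFD KO replicate 1 or 3, or under quantile normalization).

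Il10ra, the IL-10 binding chain, stood at 4.89, 4.12, 4.46 and 4.86 FPKM in chow WT, 3.31, 3.25, 3.13 and 3.24 in chow KO, 6.33, 17.5, 15.2 and 13.7 in HFD WT, and 23.1, 14.1, 15.5 and 8.03 in HFD KO. All HFD libraries were above all chow libraries, and Il10ra rose by 1.27 (SE 0.28, adjusted p = 0.00240) and 1.85 (SE 0.28, adjusted p = 0.000285). Il10rb stood at 25.1, 21.8, 23.4 and 20.3 FPKM in chow WT, 28.6, 36.3, 24.4 and 26 in chow KO, 34.1, 97.9, 92.2 and 66.8 in HFD WT, and 111, 70.5, 81.9 and 36.7 in HFD KO. Each HFD group lay above its chow group, and Il10rb rose by 1.54 (SE 0.32, adjusted p = 0.00183) and 1.26 (SE 0.32, adjusted p = 0.00707). It shares 569 exon bases on its own strand with the annotated gene Gm21970. Il20rb, a chain of IL-20 type receptors, was at most 1.11 FPKM in all libraries but chow KO replicate 2 (4.01 FPKM) and HFD WT replicate 4 (2.77 FPKM), and passed in neither comparison.

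Il22ra2, a soluble trap of IL-22, stood at 1.41, 1.95, 2.01 and 1.51 FPKM in chow WT, 0.15, 0.03, 0.83 and 0.8 in chow KO, 0.14, 0.11, 0.03 and 0.05 in HFD WT, and 0.14, 0, 0.17 and 8.52 in HFD KO. Chow WT was the high group, and the single value above it came from HFD KO replicate 4, a library with epididymal genes. Il22ra2 differed by -1.32 with diet in WT-labelled mice (adjusted p = 0.0559) and by -0.95 between labels on chow (adjusted p = 0.436). Without HFD KO replicate 4 the chow difference had an adjusted p of 0.0216, but Il22ra2 then passed the filter through the chow WT libraries alone. That call is not independent of the filter.

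The gp130 receptors split, and the IL-27 receptor rose. Il27ra stood at 2.07, 1.32, 1.34 and 1.72 FPKM in chow WT, 1.3, 0.96, 1.43 and 1.34 in chow KO, 2.87, 7.15, 4.23 and 3.91 in HFD WT, and 2.83, 4.08, 2.6 and 1.93 in HFD KO. Under each label the diets did not overlap, and Il27ra rose by 1.04 (SE 0.21, adjusted p = 0.00147) and 0.75 (SE 0.21, adjusted p = 0.0118). Il6st stood at 76.8, 69.4, 75.1 and 83.3 FPKM in chow WT, 85.4, 65, 55.4 and 58.3 in chow KO, 78.3, 52.2, 65 and 75.1 in HFD WT, and 66.8, 74.7, 71.1 and 54.3 in HFD KO. All 4 groups overlapped, with differences of -0.18 and 0.03 (adjusted p = 0.373 and 0.912). Il11ra1 lay between 19.9 and 44.6 FPKM and differed by 0.35 and -0.09 (adjusted p = 0.167 and 0.761).

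In the IL-17 family the receptor chains that changed with diet fell. Il17rb, the IL-25 binding chain (chromosome 14, 29996168 to 30008896), stood at 3.95, 3.89, 2.91 and 4.76 FPKM in chow WT, 2.15, 3.19, 1.29 and 1.65 in chow KO, 0.37, 0.37, 0.34 and 0.32 in HFD WT, and 0.24, 1.05, 0.36 and 1.11 in HFD KO. The HFD WT libraries agreed closely, and each HFD group lay below its chow group. Il17rb fell by 1.84 (SE 0.21, adjusted p = 3.02e-05) in WT-labelled and by 0.86 (SE 0.21, adjusted p = 0.00553) in KO-labelled mice. The ligand Il25 was at most 0.07 FPKM.

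**Figure D3:**
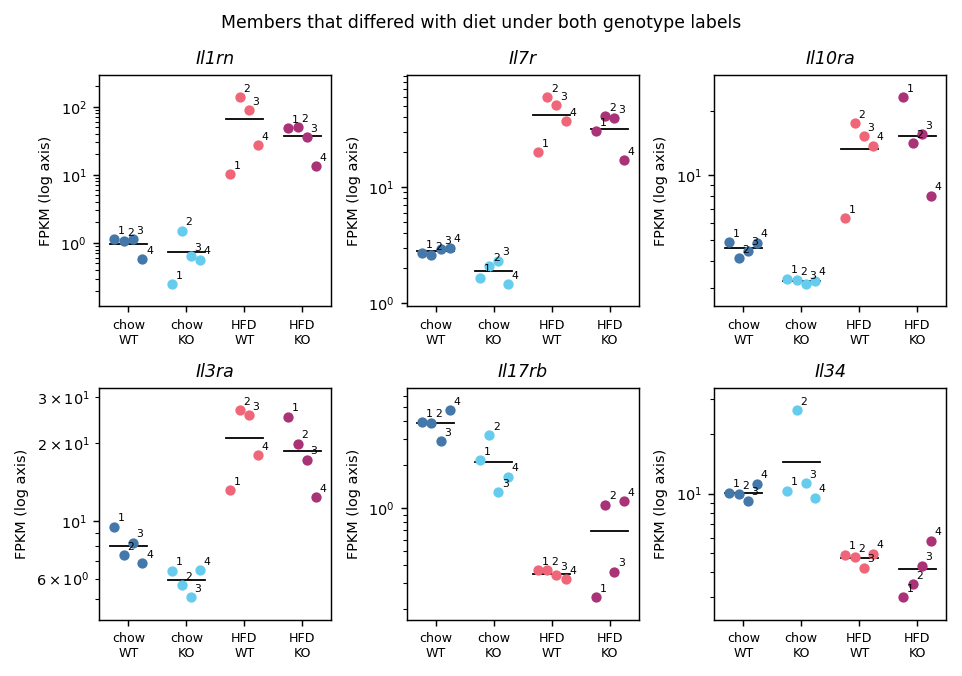
FPKM per library on log axes for 6 members that differed with diet under both labels, with the replicate number beside each point and the group mean as a bar. Il1rn, Il7r, Il10ra and Il3ra lie higher on HFD and Il17rb and Il34 lower; HFD WT replicate 1 and HFD KO replicate 4 are the lowest of their groups for the 4 that rose.

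Il17rc, a receptor chain for IL-17A and IL-17F, and Il17re, the chain for IL-17C, are neighbours on chromosome 6. Il17rc stood at 10.6, 13.2, 11 and 12.8 FPKM in chow WT, 9.98, 6.35, 10.3 and 13.2 in chow KO, 7.88, 5.27, 4.21 and 6.63 in HFD WT, and 4.63, 6.48, 5.37 and 6.79 in HFD KO. The KO groups overlapped through chow KO replicate 2, and Il17rc fell by 0.91 (adjusted p = 0.00242) and 0.66 (adjusted p = 0.0168, lost without chow KO replicate 4 or HFD KO replicate 1). Il17re stood at 4.01, 4.16, 3.19 and 2.96 FPKM in chow WT, 2.65, 3.59, 3.36 and 2.89 in chow KO, 1.25, 0.33, 0.71 and 1 in HFD WT, and 0.55, 5.56, 1.05 and 5.13 in HFD KO. The high HFD KO values are replicates 2 and 4, both with epididymal genes. Il17re fell by 1.35 in WT-labelled mice (SE 0.37, adjusted p = 0.0101) and differed by -0.29 in KO-labelled mice (adjusted p = 0.568). Without the 3 libraries with epididymal genes the KO difference was -1.15 (adjusted p = 0.00121).

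Il17ra, the chain used by most IL-17 cytokines, stood at 5.55, 5.24, 5.01 and 6.25 FPKM in chow WT, 5.76, 6.96, 5.26 and 6.2 in chow KO, 4.7, 5.29, 11.1 and 5.64 in HFD WT, and 15.4, 6.1, 9.69 and 6.27 in HFD KO. The groups overlapped, and Il17ra differed by 0.17 and 0.47 (adjusted p = 0.614 and 0.156). Il17rd lay between 1.26 and 2.9 FPKM and the ligand Il17d between 0.92 and 4.54 FPKM, and both passed in neither comparison. Markers of the mesothelium, the cell layer over the fat pad, fell beside these chains: 4 of 5 fell in WT-labelled and 3 of 5 in KO-labelled mice, with sums of 43.9 to 107 FPKM on chow and 21.3 to 70.7 on HFD. Their part in the result was not tested.

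Il34, the second ligand of the macrophage growth factor receptor Csf1r, fell under both labels. Il34 stood at 10.1, 9.94, 9.23 and 11.2 FPKM in chow WT, 10.3, 26.4, 11.3 and 9.54 in chow KO, 4.92, 4.77, 4.22 and 4.97 in HFD WT, and 2.99, 3.49, 4.31 and 5.77 in HFD KO. Every HFD library was below every chow library, and chow KO replicate 2, a library with epididymal genes, was the highest. Il34 fell by 0.96 (SE 0.24, adjusted p = 0.00612) and 1.49 (SE 0.24, adjusted p = 0.000538), and by 1.30 in KO-labelled mice without the 3 libraries with epididymal genes. Csf1r rose, from 78.7 ± 7.65 to 171 ± 58.7 FPKM (SD, n = 4, adjusted p = 0.0133) and from 60.3 ± 9.44 to 184 ± 78.3 FPKM (adjusted p = 0.00185).

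Il4i1, a secreted enzyme that degrades aromatic amino acids, stood at 0.77, 0.71, 0.46 and 1.19 FPKM in chow WT, 0.52, 0.62, 1.13 and 0.52 in chow KO, 0.54, 0.51, 0.65 and 1.12 in HFD WT, and 3.39, 1.36, 1.9 and 1.35 in HFD KO. HFD KO lay above the other 3 groups. Il4i1 rose in KO-labelled mice by 0.79 (adjusted p = 0.00928, 0.0697 under quantile normalization) and differed by -0.06 in WT-labelled mice. It shares 3423 exon bases with Tbc1d17 on the opposite strand, and its values may hold reads of that gene, as strand was not given in the sources used here. On its own strand it shares 97 exon bases with Nup62. Its position (chromosome 7, 44836288 to 44840809) lies nearly all within that of Il4i1b (44816370 to 44840804), which was at most 0.49 FPKM. How reads were shared between Il4i1 and Il4i1b was not given either. Il16, a chemoattractant for cells with CD4, lay between 7 and 17 FPKM and differed by -0.03 and 0.35 (adjusted p = 0.911 and 0.175).

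Between the labels on chow, 1 of the 41 tested members differed, 2.44% against 1.41% of all tested genes. It was Il6ra (chromosome 3, 89869324 to 89913196). Il6ra stood at 26, 29.2, 26.7 and 26.5 FPKM in chow WT, 13.8, 9.5, 11.2 and 14.4 in chow KO, 13.8, 17.7, 19 and 17.3 in HFD WT, and 24.6, 18.6, 22.8 and 15.1 in HFD KO. Every chow WT library lay above every other library, and chow KO was the lowest group, overlapping HFD WT replicate 1. Il6ra thus fell with diet under the WT label and rose under the KO label. The differences were -1.10 between labels on chow (SE 0.16, adjusted p = 0.00230), -0.66 with diet in WT-labelled mice (SE 0.16, adjusted p = 0.00419) and 0.68 with diet in KO-labelled mice (SE 0.16, adjusted p = 0.00401). These 3 comparisons share the chow groups and are not separate evidence. Between labels on HFD the groups overlapped (0.23, SE 0.16, adjusted p = 0.560). Il6st, with which Il6ra signals, differed by -0.22 between labels on chow (adjusted p = 0.554).

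The interaction of genotype label and diet tests whether the diet difference itself differed between labels. It was past the threshold for Il6ra alone among the 41 tested members, 2.44% against 0.292% of all tested genes, with a difference of 1.33 (SE 0.22, adjusted p = 0.0192). Without chow WT replicate 2, 3 or 4 its adjusted p was 0.0577, 0.0551 and 0.0613. The calls found under 1 label only (Il15ra, Il17re, Il1b, Il1r2, Il13ra2, Il21r and Il4i1) are thus not shown to differ between labels. Il17rb had an interaction of 0.98 (adjusted p = 0.232), and Il4i1 of 0.85 (adjusted p = 0.310).

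**Figure D4:**
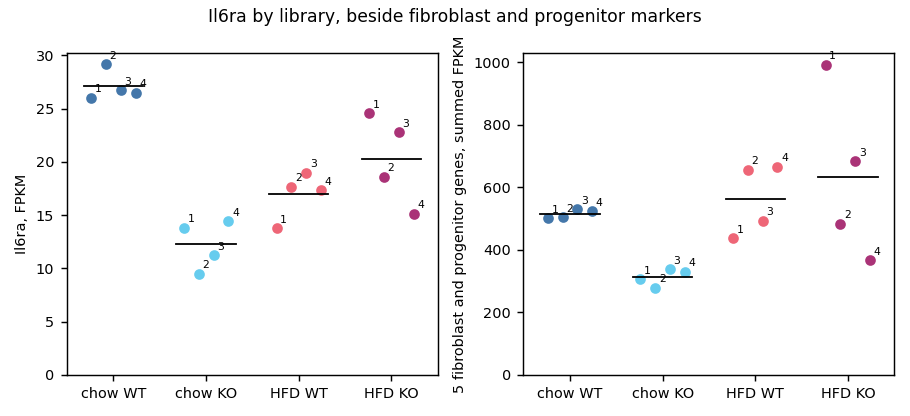
Left, Il6ra in FPKM for each library by group, with replicate numbers and the group mean as a bar. Right, the summed FPKM of 5 fibroblast and progenitor marker genes in the same libraries. In both panels chow KO (9.5 to 14.4 FPKM for Il6ra, 279 to 338 FPKM summed) lies below chow WT (26 to 29.2 and 502 to 530.4 FPKM); the gap in the sum is nearly all from Dpt.

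Other values moved with the Il6ra difference on chow. The 5 fibroblast and progenitor genes (Pdgfra, Dpt, Col1a1, Pi16 and Dpp4) summed to 502 to 530.4 FPKM in chow WT, 279 to 338 in chow KO, 438 to 666 in HFD WT and 367 to 993 in HFD KO. On chow the gap came from 1 gene: Dpt, a matrix protein of fibroblasts, was 354 to 396 FPKM in chow WT and 140.5 to 244 in chow KO, while the other 4 overlapped and summed to 108 to 148 and 94.7 to 138 FPKM. None of the 5 passed the threshold on chow, and Pdgfra was 18.4 to 24.2 FPKM in chow WT and 16.9 to 40.2 in chow KO. Nnt, a mitochondrial enzyme lost in some mouse substrains and chosen after its values were seen, was 25.7 to 29.2 FPKM in chow WT and 6.5 to 10.6 FPKM in all other libraries, so chow WT stood apart from HFD WT too. The part of these in the result was not tested. Exons of Il6ra overlap those of the antisense gene Gm42809 by 242 bases, and reads of both cannot be told apart without strand.

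On HFD, 0 of the 41 tested members differed between labels by limma at an adjusted p under 0.05, against 0.0316% of all tested genes, and 8 (19.5%) had an unadjusted p under 0.05, against 11.8% of all tested genes. These 8 were Il4i1 (0.78), Il15ra (0.84), Il18bp (0.75), Il18r1 (0.73), Il1b (1.64), Il17re (0.91) and Il21r (0.85), all higher in HFD KO, and Il27ra (-0.50), lower in HFD KO. Their adjusted p lay between 0.295 and 0.389. For Il18r1, the highest value, 5.33 FPKM, came from HFD KO replicate 2, a library with epididymal genes.

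The HFD KO mice were not alike in their interleukin RNA, and the HFD WT mice were not either. In HFD WT, replicates 2 and 3 were both above 1 and 4 for Il1rn (139 and 89.7 against 10.1 and 27 FPKM). The same held for Il7r (59.6 and 50.8 against 20 and 36.9 FPKM) but not for Il15 or Il17d. Members were not counted for this order in HFD WT. Of the 41 tested members, 20 (48.8%) had their highest value of all 16 libraries in HFD KO replicate 1, as had 15.4% of all tested genes. In 20 members (48.8%), against 26.4% of all tested genes, HFD KO replicates 1 and 3 were both above HFD KO replicates 2 and 4. These replicates, and the 6 members plotted by library for them, were singled out after their values were seen, and no test was made. For Il1b, Il1f9, Il1r2, Il4ra, Il21r and Il1r1 the order of the HFD KO replicates, from high to low, was 1, 3, 2 and 4.

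**Figure D5:**
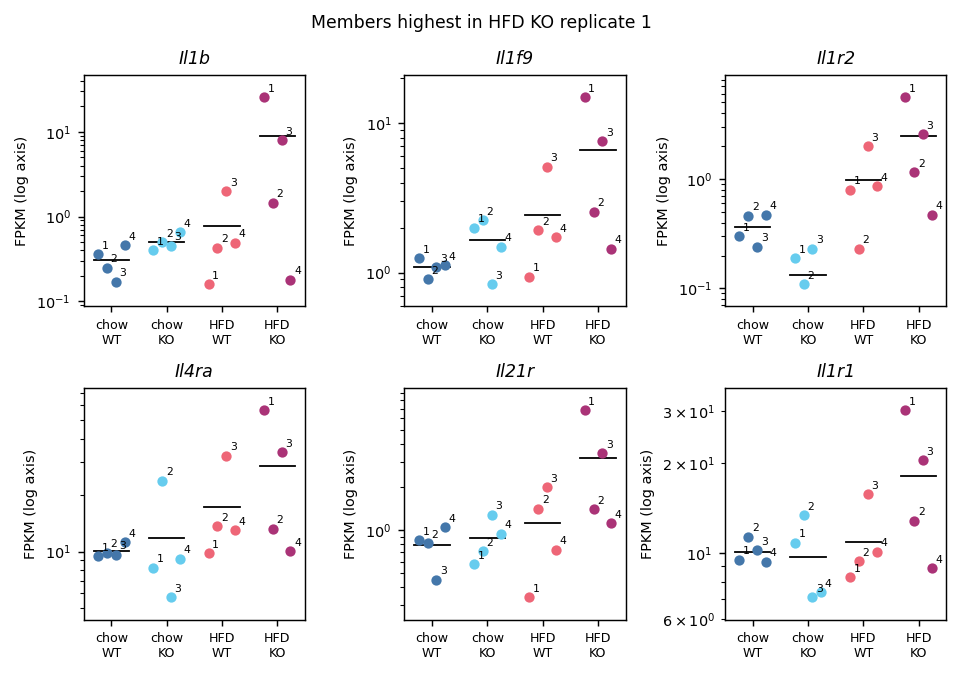
FPKM per library on log axes for 6 members whose highest value was in HFD KO replicate 1, with replicate numbers and the group mean as a bar; Il1r2 in chow KO replicate 4 is 0 and is not drawn. In each panel HFD KO falls from replicate 1 through 3 and 2 to 4, over a range from 25.8 to 0.18 FPKM for Il1b.

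Markers of other cells differed between these libraries as well. The 9 neutrophil genes summed to 285, 19.3, 96.9 and 162 FPKM in HFD KO replicates 1 to 4, 22.2 to 59.3 in HFD WT and 6.39 to 16.8 on chow. In replicate 4, 128 FPKM of the sum was Ltf, a lactoferrin gene that glands also express. Csf3r, the receptor of the neutrophil growth factor, was 23.7 FPKM in replicate 1, against 3.03 in replicate 4, while Ly6g, a defining neutrophil gene, was at most 0.39 FPKM in any library. The macrophage sums were 8361, 4886, 6296 and 2373 FPKM and the adipocyte sums 3204, 6971, 7231 and 14127 FPKM. Mast cell genes summed to 304, 186, 227 and 80.1 FPKM and eosinophil genes to 7.39, 2.57, 5.09 and 2.21 FPKM. Fibroblast and progenitor genes summed to 993, 484, 683 and 367 FPKM. These 3 sums and the macrophage sum had the order 1, 3, 2 and 4 from high to low. The sums of the other marker lists, neutrophil genes included, did not. The part of these cells in the spread of the members was not tested.

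Genes of the pathway that carry other names were counted from 4 lists, to be read beside the 24.6% of all tested genes that rose and 17.2% that fell in WT-labelled mice, and the 23.5% and 15.3% in KO-labelled mice. Of 14 tested receptor partners and ligands, 7 rose (50%) and 2 fell (14.3%) in WT-labelled mice, and 7 rose (50%) and 1 fell (7.14%) in KO-labelled mice. Csf2ra, the GM-CSF binding chain, and Csf2rb2, the beta chain that pairs with Il3ra for IL-3, rose by 2.17 and 2.59 in WT-labelled and 2.32 and 2.69 in KO-labelled mice. Csf2rb2 is a near copy of Csf2rb, and their values may share reads. Crlf2, which joins Il7r to bind TSLP, rose from 11.3 ± 0.798 to 35.4 ± 11.4 FPKM (SD, n = 4, adjusted p = 0.000127) and from 9.57 ± 2.08 to 29.9 ± 5.25 FPKM (adjusted p = 0.000154), while Tslp, named after its values were seen, fell in WT-labelled mice (-0.54, adjusted p = 0.0228).

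Of 19 JAK-STAT genes, 6 rose (31.6%, against 24.6% of all tested genes) and 1 fell (5.26%, against 17.2%) in WT-labelled mice, and 6 rose (31.6%, against 23.5%) and 0 fell (against 15.3%) in KO-labelled mice. The shares that rose were near the background. The named genes of this list, by smallest p, were Ptpn6, a phosphatase that damps cytokine receptors (2.12 and 2.35), Stat6, the factor of IL-4 and IL-13 (0.55 and 1.03), Socs5, a feedback inhibitor (0.81 and 0.56), and Jak1, a kinase of most of these receptors (0.41 and 0.60), and all 4 rose under both labels.

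Of 15 genes of IL-1 and IL-17 signalling, 4 rose (26.7%, against 24.6% of all tested genes) and 1 fell (6.67%, against 17.2%) in WT-labelled mice, and 5 rose (33.3%, against 23.5%) and 1 fell (6.67%, against 15.3%) in KO-labelled mice. The WT share that rose was near the background. Irak4, the first kinase after MyD88, rose (0.89 and 1.29), as did Zc3h12a, an RNase that degrades cytokine mRNA (0.77 and 0.70). Tab3, a subunit of the TAK1 kinase complex, fell (-1.11 and -0.85), and Irak3, an inhibitory member of the family, differed by 0.13 in WT-labelled mice and rose by 0.55 in KO-labelled mice. On chow, Irak2, a further IRAK kinase named after its values were seen, was lower under the KO label (-1.07, adjusted p = 0.0123). No other listed pathway gene differed between labels on either diet.

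Of 10 tested genes of processing and release, 7 rose (70.0%, against 24.6% of all tested genes) and 2 fell (20%, against 17.2%) in WT-labelled mice, and 6 rose (60.0%, against 23.5%) and 2 fell (20%, against 15.3%) in KO-labelled mice. The shares that fell were near the background. Casp1, the protease that matures IL-1 beta and IL-18, rose by 1.74 under each label (adjusted p = 2.20e-05 and 3.80e-05), and Pycard, its inflammasome adaptor, by 1.93 and 1.78. Prtn3 and Elane, serine proteases of neutrophils that can also cut IL-1 family precursors, fell by 2.86 and 0.99 in WT-labelled and by 2.36 and 1.12 in KO-labelled mice. Elane was at most 0.390 FPKM in any HFD library, so it passed the filter through chow libraries alone. Nlrp3, also on this list, was at most 0.600 FPKM on chow and passed through HFD libraries alone. Their part in these counts is not independent of the filter. Prtn3 stood at 9.44 to 13.2 FPKM in all chow libraries and 0.220 to 2.06 FPKM in all HFD libraries. The summed neutrophil markers went the other way, at 6.39 to 16.8 FPKM on chow, 22.2 to 59.3 in HFD WT and 19.3 to 285 in HFD KO. Of the 4 tested neutrophil markers, 1 rose in WT-labelled and 2 in KO-labelled mice, and 0 fell. The part of neutrophils in the Prtn3 and Elane results was not tested.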

How the data were processed

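The deposited table holds FPKM per gene and library, as the authors deposited it, with 2 decimals. Per the submitters' processing notes, STAR 2.7 and the builds GRCm38.p6 and mm10 were used; per the labels' protocols, RNA was taken with TRIzol and libraries made with an MGIEasy kit. The tool that made the FPKM, its annotation and the strand were not given in the sources used here. Other members too share exon bases with genes on the opposite strand, among them Il16 (1202, Stard5), Il4ra (571, Gm44876) and Il17rb (141, Actr8). Their values may hold reads of those genes. FPKM holds no counts, so the depth behind each value is unknown and precision was read from the 4 mice of a group. The 14408 circular RNA entries and 1 blank entry were not used.

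Of 20101 genes, 12667 reached 1 FPKM in 4 or more of the 16 libraries and were fitted as log2(FPKM + 1) with limma 3.58.1 in R 4.3.3, with 4 group means over all 16 libraries and a variance trend, without covariates. Differences are those between group means of log2(FPKM + 1), which understate changes of low genes and are not the log2 of a ratio of mean FPKM. The p was adjusted by Benjamini-Hochberg over all 12667 genes and called under 0.05. The fit was tested on simulated data. Every tested member is named; values per library are given for members called in any comparison and 19 fixed members, and up to 4 genes per pathway list by smallest p. The members and lists were chosen with earlier results of these data known. All 79 members matched RefSeq by gene number; promoters are RefSeq, GRCm38.p6. Alternatives were 16 fits without 1 library, 12 others, and 1 filter added after the data were seen. Same-numbered replicates were checked for shared deviations and do not pair the mice.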

Additional observations from a re-analysis of the deposited data

Results flagged for a closer look

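Single libraries stood far from the other 3 of their group in 12 of 164 groups of 4 examined (the 41 tested members in each of the 4 groups), by Dixon's criterion, under which chance alone marks about 1 in 20 groups; groups that nowhere reached 1 FPKM were not marked. In chow WT they were Il1rn in replicate 4 (0.580 FPKM, next value 1.05) and Il33 and Il7 in replicate 1 (10.2 FPKM, next 3.53, and 1.40 FPKM, next 0.980). In chow KO they were Il7 and Il16 in replicate 1 (2.50 FPKM, next 1.39, and 11.8 FPKM, next 8.44), Il34 in replicate 2 (26.4 FPKM, next 11.3) and Il4i1 in replicate 3 (1.13 FPKM, next 0.620). In HFD WT all 3 were in replicate 3: Il4ra (32.4 FPKM, next 13.6), Il17ra (11.1 FPKM, next 5.64) and Il18bp (5.53 FPKM, next 2.30). In HFD KO they were Il18r1 in replicate 2 (5.33 FPKM, next 1.70) and Il22ra2 in replicate 4 (8.52 FPKM, next 0.170). Chow KO replicate 2 and HFD KO replicates 2 and 4 hold transcripts of the epididymis. The part of these transcripts in the Il34, Il18r1 and Il22ra2 values was not tested.

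The diet difference of Il6ra differed between the genotype labels, by 1.33 on the log2(FPKM + 1) scale (limma interaction, adjusted p = 0.0192), with all 4 HFD KO libraries above all 4 chow KO libraries and all 4 HFD WT libraries below all 4 chow WT libraries.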

How the results depend on the processing

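Of 37 changes called for a member in a comparison, 26 were called in every alternative that tests them, 11 were lost in at least 1, and 0 changed direction. The replicate block took the interaction count from 1 to 0 (Il6ra 1.33, limma adjusted p = 0.0802), with 0.142% of all tested genes called, against 0.292% in the main fit. As the replicate numbers do not pair the mice, this is no weaker effect. The interaction count lay between 0 and 1 over the fits without 1 library. It was 0 without chow WT replicate 2, 3 or 4, where 0.103%, 0.119% and 0.0949% of all tested genes were called. The count between labels on chow was 1 of 41 tested members, against 1.41% of all tested genes. It was 2 of 41 under median-of-ratios scaling (against 1.66% of all tested genes) and under quantile normalization (1.51%), with Il17rb added. With the 2 groups compared alone it was 2 of 34 (3.54%), with Il22ra2 added. Without the 3 libraries with epididymal genes it was 3 of 37 (1.94%), with Il17rb and Il22ra2 added. Over the fits without 1 library it lay between 1 and 2, with 2 of 41 (1.82%) without HFD KO replicate 4. The cause of these changes in the count was not tested. Where Il22ra2 was added, it passed the filter through the chow WT libraries alone, so those calls are not independent of the filter. The counts with diet, and the count of 0 between labels on HFD, stayed within 1.5 times of their value in all alternatives, at 13 to 19 in WT-labelled and 13 to 24 in KO-labelled mice. These ranges are given without the matching shares of all tested genes and are not read against the background.

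Of 168 uncalled differences over the 5 comparisons, 56 changed sign in at least 1 alternative. Among the 13 of them followed in each alternative, those that changed sign were Il1r1 with diet in WT-labelled mice (-0.06 under quantile normalization, and from -0.11 without HFD WT replicate 3 to 0.17 over the fits without 1 library), Il17re with diet in KO-labelled mice (-0.61 to 0.08 over such fits, highest without HFD KO replicate 1), and Il1rn between labels on HFD (-1.06 to 0.16 over such fits, with 0.16 without HFD WT replicate 2 and 0.03 without HFD KO replicate 4). Median-of-ratios scaling moved the median of all genes by -0.136 between labels on HFD. Il1b, Il1r2, Il10 and Il13ra2, which reached 1 FPKM on HFD alone, have no value in some alternatives, among them the added filter with at least 1 library on each diet. Depth is unknown, so values under about 1 FPKM carry an error that is not known.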
